A study of Saccharomyces cerevisiae with 4 samples.

Results

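The 10 genes described here code for enzymes of ergosterol synthesis in budding yeast (Saccharomyces cerevisiae). They were chosen by the systematic names of ERG10, ERG13, HMG1, HMG2, ERG1, ERG11, ERG25, ERG3, ERG5 and ERG6, and all 10 have a row among the 6207 reading frames of the deposited table. Values exist on all 4 arrays for 6 of the 10, on 2 arrays for ERG25 and ERG5, on 1 array for HMG1 and on 0 arrays for HMG2. Over all reading frames, 49.6% have a value on all 4 arrays.

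Every array compared RNA of a wsc1 mutant in the BY4741 background, a common laboratory strain, after 4 h with Congo Red at 30 µg/ml with RNA of the same mutant culture left without the dye. Cultures grew in rich medium (YEPD) at 24 °C and were split, so both arms share the strain, the mutation and the medium. WSC1 codes for a membrane protein that senses stress at the wall, and Congo Red binds chitin and glucan and disturbs wall assembly. The labels give 2 cultures, each hybridised with both dye orientations, but not which arrays share a culture. Congo Red RNA carried Cy3 on arrays 1 and 3 and Cy5 on arrays 2 and 4. The labels do not say what kind of mutation wsc1 carries, the WSC1 row has a value on 0 arrays, and no strain with intact WSC1 was used here.

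Ergosterol is the main sterol of fungal membranes. Its synthesis joins acetyl-CoA units into mevalonate, turns mevalonate into prenyl diphosphates and squalene, and closes and trims the ring system, with several late steps that need oxygen and heme. When sterols run low, the transcription factors Upc2 and Ecm22 raise transcription of many of these genes, and azole drugs act on the product of ERG11.

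Each value is a log ratio read as log2 of Congo Red over untreated, a direction that is likely rather than settled. Congo Red is known to induce the targets of cell wall integrity signalling, and 24 of 27 tested lay above 0 on all 4 arrays as deposited. A further 2 lay below 0 on all 4, so 26 of the 27 had a single sign whichever dye carried Congo Red. The list of targets was drawn up with earlier results of these data known, so these counts are no independent check of direction. Over all tested genes, Pearson's r was 0.64 between arrays 1 and 3 and 0.71 between arrays 2 and 4, but between -0.053 and 0.33 for arrays of opposite orientation. Spearman's rho of these opposite pairs ran lower, from -0.26 to 0.10, and was below 0 for 3 of the 4. The means of the 3080 reading frames with values on all arrays had a median of -0.10. Limma called 80 of them for Congo Red (47 higher and 33 lower) at an adjusted p below 0.05, and 807 had an unadjusted p below 0.05. The split was 4 higher and 0 lower after each array was centred on the median of its tested genes. It was 30 higher and 2 lower after centring on the median of all values of an array, a choice made after seeing the data. The latter moved the median of all genes by 0.12.

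Congo Red gave no called change in any of the 6 ergosterol genes that could be tested. The call rate over all tested genes was 2.60%, with 1.53% called higher and 1.07% called lower, so 0 of 6 is near that background. The gene with the largest mean was ERG10, at 0.52, and the other 5 lay between -0.075 and 0.16. Of the 6 means, 5 lay above 0 and all 6 above the median of all genes, and the 6 had a median of 0.069. Unadjusted, 1 of the 6 had a p below 0.05, against 807 of 3080 genes.

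**Figure D1:**
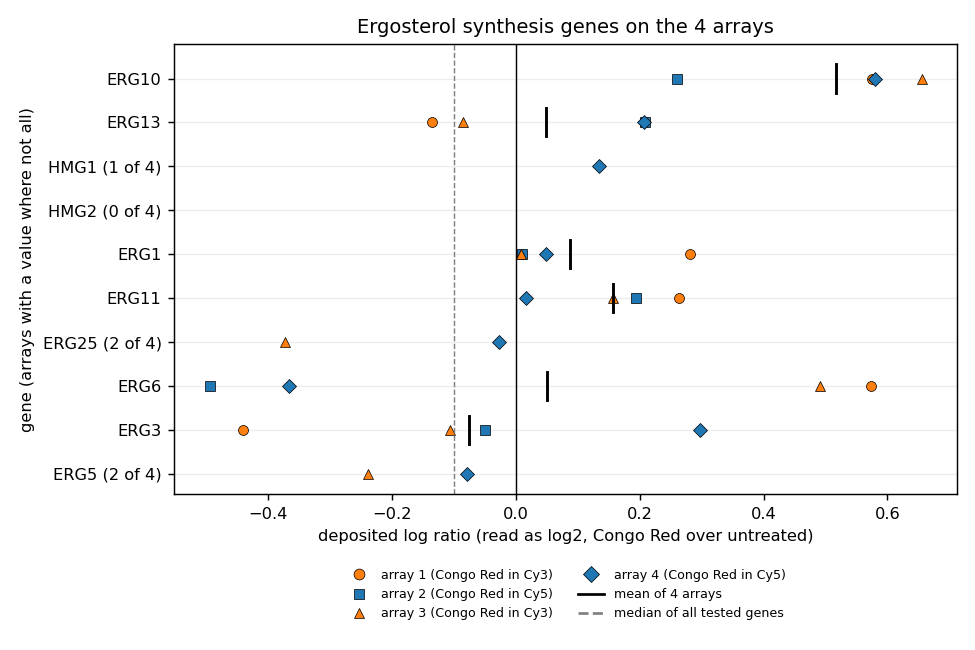
Deposited log ratio (horizontal axis, log2, Congo Red over untreated) of the 10 ergosterol genes in pathway order, with 1 symbol per array, a bar at the mean of 4 arrays and a dashed line at the median of all tested genes (-0.10). ERG10 lies above 0 on all arrays at 0.26 to 0.66, whereas the 2 dye orientations of ERG6 fall on opposite sides of 0.

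The pathway opens with ERG10 (YPL028W), the acetoacetyl-CoA thiolase gene, whose log ratios were 0.57, 0.26, 0.66 and 0.58 on arrays 1 to 4. All arrays lay above 0, array 2 was the lowest, and the dye orientations differed by -0.20 (Cy5 minus Cy3, adjusted p = 0.441 by limma with a dye term). The mean of 0.52 ± 0.10 (moderated SE, n = 2 cultures) is a 1.43-fold ratio, and its 95% interval from 0.26 to 0.78 is not adjusted for the number of genes. ERG10 was not called (limma on culture means, adjusted p = 0.0866), and 7.99% of the tested genes had a mean at least as far from 0. It was called when arrays 1 and 4 were taken as a culture (adjusted p = 0.0124) and when the 4 arrays entered limma separately beside a term for dye (adjusted p = 0.0244). The former fit called 787 of all 3080 genes. The latter fit counts the 2 arrays of a culture as independent and called 320, against 80 with the larger p of both pairings. In that fit the mean was 0.54 without array 1, 0.60 without array 2, 0.50 without array 3 and 0.44 without array 4.

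The next step belongs to ERG13 (YML126C), the gene of HMG-CoA synthase. It measured -0.14, 0.21, -0.085 and 0.21, so both arrays with Congo Red in Cy3 lay below 0 and both with Congo Red in Cy5 above it. The mean was 0.049 ± 0.087 (adjusted p = 0.727), and the difference of 0.32 between orientations was not called (adjusted p = 0.156).

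HMG-CoA reductase, the main control point of the mevalonate route, is coded by the paralogs HMG1 (YML075C) and HMG2 (YLR450W). HMG1 had a single value, 0.14 on array 4, and HMG2 had none, so the reductase step could not be compared between conditions.

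Squalene epoxidase, the first enzyme of the route that uses oxygen, is coded by ERG1 (YGR175C), with 0.28, 0.0093, 0.0083 and 0.049 on arrays 1 to 4. Array 1 stood above the other 3, which lay close to 0. The mean of 0.087 ± 0.091 was not called (adjusted p = 0.55), and without array 1 the fit with a dye term gave 0.019.

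ERG11 (YHR007C) codes for lanosterol demethylase, a cytochrome P450. Its values of 0.26, 0.19, 0.16 and 0.017 were above 0 on every array, with array 4 the lowest. The mean was 0.16 ± 0.093 and was not called (adjusted p = 0.315), and the 2 orientations overlapped. ERG1, ERG10 and ERG11 are the 3 of 6 tested members with a single sign on all arrays, a pattern held by 28.4% of all tested genes.

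ERG25 (YGR060W), coding for the oxidase that removes methyl groups from the sterol ring, had -0.37 on array 3 and -0.027 on array 4. ERG5 (YMR015C), coding for the cytochrome P450 that desaturates the sterol side chain, had -0.24 and -0.078 on the same arrays. Both genes were below 0 on both arrays and lower on array 3, which carried Congo Red in Cy3. With 2 values of opposite orientation and no known culture, neither was tested.

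ERG6 (YML008C), the sterol methyltransferase gene, had the widest separation by dye of the tested members. It measured 0.57 and 0.49 on the arrays with Congo Red in Cy3 but -0.49 and -0.37 on those with Congo Red in Cy5. The orientations did not overlap and had opposite signs, so the mean was 0.051 ± 0.087 (adjusted p = 0.714). The dye difference was -0.96 (Cy5 minus Cy3) and was called (limma with a dye term, adjusted p = 0.0244). Of the 6 tested members ERG6 was the only one called for dye, against 16.0% of all tested genes, and 7.89% of them had a dye difference at least as large.

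ERG3 (YLR056W) codes for a sterol desaturase late in the route. Its log ratios were -0.44, -0.049, -0.11 and 0.30, with array 1 the lowest and array 4 alone above 0. The mean was -0.075 ± 0.12 (adjusted p = 0.693), and centring each array turned its sign to 0.015. The dye difference of 0.40 was not called (adjusted p = 0.206).

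For the 5 tested members other than ERG10, the 95% intervals of the mean all lay between -0.39 and 0.40. In fold terms those limits are 0.764 and 1.32. With the ratios as deposited, a larger change in either direction lay outside the intervals, which draw partly on a variance shared across genes. If arrays 2 and 4 had to be turned, the mean of ERG6 would be 0.48, above the upper limit of 0.40. The moderated SE of these 5 genes was 0.087 to 0.12, with n = 2 cultures.

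**Figure D2:**
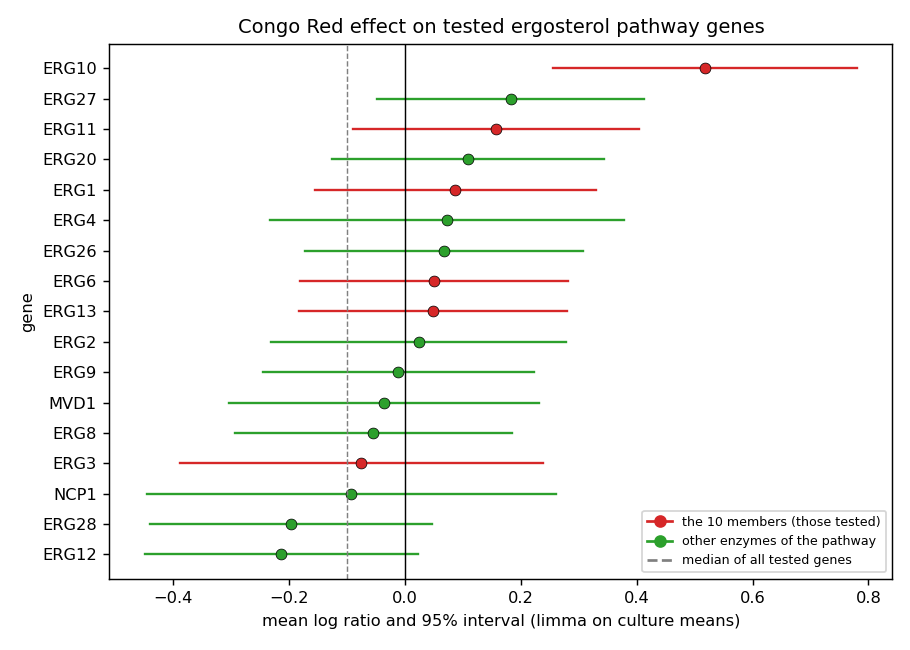
Mean log ratio (points) with its 95% interval (lines, limma on culture means, wider of the 2 pairings, not adjusted for the number of genes) of the 17 tested genes of the pathway, in order of the mean, with a dashed line at the median of all tested genes. ERG10 alone has an interval that leaves out 0.

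The other 15 enzymes and helper proteins of the route gave a similar picture. Of these, 11 had a value on all arrays, 0 were called higher and 0 lower, and 0 had an unadjusted p below 0.05 (limma, adjusted p from 0.21 to 0.943). Their means ran from -0.21 to 0.18 with a median of -0.011. With the ratios as deposited, the 2 means farthest from 0 were those of ERG12 and ERG28. ERG12, the mevalonate kinase gene, measured -0.36, 0.0079, -0.42 and -0.075, with both Cy3 arrays below both Cy5 arrays and a mean of -0.21 ± 0.089 (adjusted p = 0.21). ERG28, whose product holds the demethylation enzymes together, had -0.70, 0.19, -0.55 and 0.28, which gave a mean of -0.20 ± 0.091 (adjusted p = 0.241).

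The dye separation seen for ERG6 recurred along the pathway. Among these 11 enzymes, 5 were called for dye, namely ERG20, ERG9, ERG28, ERG2 and NCP1, and together with ERG6 this made 6 of 17 tested pathway genes, or 35.3%, beside 16.0% of all tested genes. ERG20, ERG9, ERG2 and NCP1 were singled out for this after their values were seen. Signs were opposite by orientation for 8 of the 17 genes, beside 28.7% of all tested genes, and no test of these shares was made.

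ERG20, coding for farnesyl diphosphate synthase, measured 0.63, -0.35, 0.48 and -0.32. ERG9, coding for squalene synthase, which uses the product of Erg20, had 0.40, -0.49, 0.36 and -0.31. These adjacent steps shared the pattern of ERG6, above 0 with Congo Red in Cy3 and below 0 with Congo Red in Cy5, with dye differences of -0.89 and -0.78 (limma with a dye term, adjusted p = 0.0249 and 0.0287). Their means were 0.11 ± 0.088 and -0.011 ± 0.088, and neither was called for Congo Red (adjusted p = 0.442 and 0.943).

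The opposite pattern held for ERG28, ERG2 and NCP1. ERG2, the sterol isomerase gene, had -0.44, 0.31, -0.24 and 0.46, and its mean was 0.024 (adjusted p = 0.882). NCP1, coding for the reductase that passes electrons to the P450 enzymes Erg11 and Erg5, had -0.36, 0.60, -0.81 and 0.19, with a mean of -0.093 (adjusted p = 0.663). All 3 lay below 0 on both Cy3 arrays and above 0 on both Cy5 arrays, with dye differences of 0.86 for ERG28, 0.73 for ERG2 and 0.98 for NCP1 (adjusted p = 0.026, 0.0381 and 0.0457). The call for NCP1 was lost when arrays were centred on their median (adjusted p = 0.0621).

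**Figure D3:**
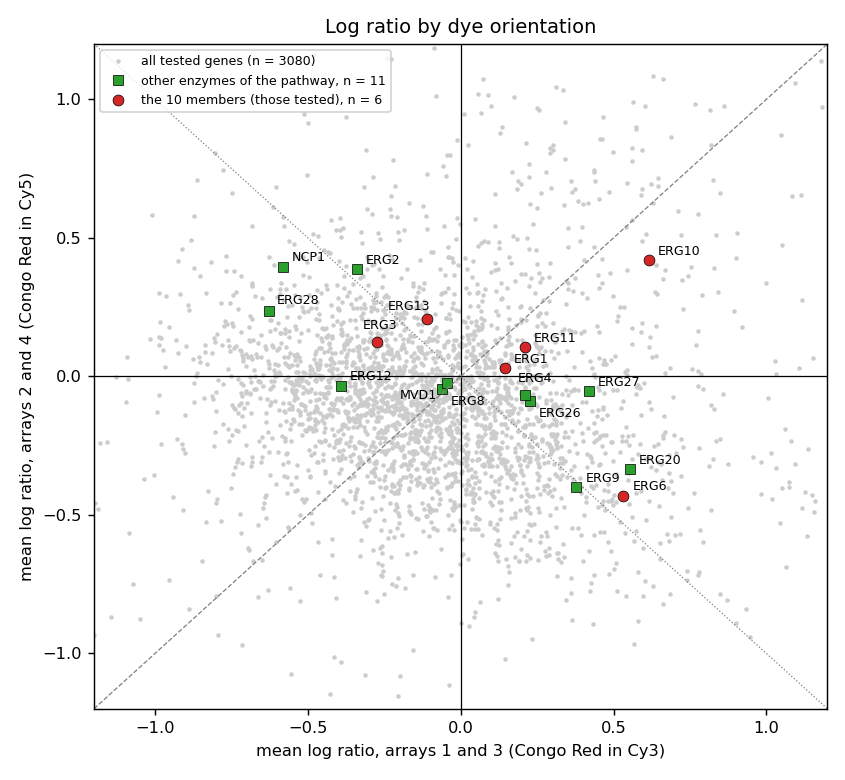
Mean log ratio on the arrays with Congo Red in Cy3 (horizontal axis) against the mean on those with Congo Red in Cy5 (vertical axis) for the 6 tested ergosterol genes, the other 11 tested enzymes and all tested genes, with lines where both means are equal (dashed) or opposite (dotted). A further 93 genes lie outside the plotted range of -1.2 to 1.2. ERG10 sits near the dashed line, and ERG6, ERG9 and ERG20 lie low on the right, near the dotted line.

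These separations matter for the direction of the ratios. If arrays 2 and 4 were channel ratios that still have to be turned, the mean would be 0.48 for ERG6 and 0.44 for ERG20 (adjusted p = 0.0832 for each), 0.39 for ERG9, -0.43 for ERG28, -0.49 for NCP1, -0.18 for ERG12 and 0.098 for ERG10, so the order of the means depends on the direction. Under that reading limma called 0 genes of 3080, with 857 at an unadjusted p below 0.05, and 0 of the 6 members.

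The remaining steps of the route had no call for dye, or lacked a value on some array and were not tested. ERG8 and MVD1, coding for the last enzymes of the mevalonate branch, had means of -0.054 and -0.035. ERG26 and ERG27, which act with Erg25 in demethylation, had 0.068 and 0.18, and ERG4, coding for the enzyme of the final step, had 0.073. IDI1, the isopentenyl diphosphate isomerase gene, had -0.74, -0.14 and -0.089 on arrays 1, 3 and 4, and ERG7, the lanosterol synthase gene, had 0.067, -0.53 and -0.071 on arrays 2 to 4. ERG29 had 0.011 and 0.19 on arrays 3 and 4, and the sterol reductase gene ERG24 had no value.

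The regulator with the largest ratio was UPC2 (YDR213W), the gene of a sterol-sensing activator of this pathway. It measured 0.33, 0.81, 0.79 and 0.83 on arrays 1 to 4, above 0 on all arrays with array 1 the lowest. The mean of 0.69 ± 0.10 was not called (adjusted p = 0.0578) and the 95% interval was 0.42 to 0.97. With the arrays fitted separately beside a dye term, which counts arrays of the same culture as independent, UPC2 passed (adjusted p = 0.0179). In that fit its mean was 0.81 without array 1, 0.70 without array 2, 0.58 without array 3 and 0.69 without array 4. Turning arrays 2 and 4 would put the mean at -0.13 (adjusted p = 0.445). ECM22, the paralog of UPC2, had a single value, -0.32 on array 4.

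HAP1, coding for a heme-responsive activator of several ERG genes, had 0.96, 0.47, 0.88 and -0.12, with both Cy3 arrays above both Cy5 arrays. Its mean was 0.55 ± 0.12 and was not called (adjusted p = 0.1), though it passed with arrays fitted separately beside a dye term (adjusted p = 0.0427). In strains derived from S288C, such as BY4741, HAP1 is interrupted near its end by a Ty element. Of the 14 regulators and partners listed, 7 were tested and 0 were called in either direction, beside 2.60% of all tested genes. An unadjusted p below 0.05 was found for 3 of the 7, beside 807 of all 3080.

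Sterol storage and transport genes held no called change either. Of 17 rows 6 were tested, 0 were called higher or lower and 1 had an unadjusted p below 0.05, again beside 2.60% called and 807 of 3080 over all genes. ARE1, coding for a sterol acyltransferase that makes steryl esters, measured -1.35, 0.096, -0.91 and -0.10. The Cy3 arrays were far below the Cy5 arrays, with a dye difference of 1.13 (adjusted p = 0.0272) and a mean of -0.57 ± 0.098 (adjusted p = 0.0673). ARE1 passed with arrays 1 and 4 as a culture and with arrays fitted separately beside a dye term (adjusted p = 0.0189 and 0.0312). These fits called 787 and 320 of all 3080 genes. OSH7, coding for a lipid transfer protein of the oxysterol-binding family, had -0.68, -0.82, 0.30 and -0.33, with array 3 alone above 0 and a mean of -0.38 ± 0.19 (adjusted p = 0.268). Pairing array 1 with 4 let it pass (adjusted p = 0.0339). With arrays fitted separately it was -0.14 without array 1, -0.26 without array 2, -0.63 without array 3 and -0.51 without array 4. Turning arrays 2 and 4 gave 0.19. Of the isoprenoid branches, COQ1, whose product makes the side chain of ubiquinone, was below 0 on all arrays at -0.55, -0.27, -0.73 and -0.23. Its mean of -0.45 ± 0.088 was not called (adjusted p = 0.0874). COQ1 passed with arrays 1 and 4 as a culture and with arrays fitted separately beside a dye term (adjusted p = 0.0162 and 0.0244).

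Heme and low oxygen genes, which share regulators with sterol synthesis, held values of both signs. The 2 calls among the 8 tested genes of that list were decreases, beside 1.07% of all tested genes called lower, and 6 of the 8 had an unadjusted p below 0.05, beside 807 of 3080. CYC7 and COX5B, which code for respiratory proteins used at low oxygen, had means of -0.90 ± 0.090 and -0.63 ± 0.087 (adjusted p = 0.0273 and 0.0498). CYC7 also had a called dye difference of -1.07 (adjusted p = 0.0244), with all arrays below 0. Neither was called after either centring, after scaling, without a dye term or where values on 3 arrays sufficed. In those fits CYC7 stayed between -0.99 and -0.78 and COX5B between -0.63 and -0.51. With an array left out, CYC7 ran from -0.97 to -0.82 and COX5B from -0.64 to -0.62. Turning arrays 2 and 4 would put CYC7 at 0.53 and COX5B at -0.17, neither of them called (adjusted p = 0.0832 and 0.26).

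Among the other tested genes of that list, ANB1 and TIR1 lay above 0 on all arrays and HEM13 and OLE1 below 0 on all. TIR2 and TIR3 changed sign with dye orientation. ANB1, coding for the low oxygen form of the translation factor eIF5A, had 0.12, 0.53, 0.20 and 0.29, all above 0, and its mean of 0.29 ± 0.089 was not called (unadjusted p = 0.0271, adjusted p = 0.16). The wall mannoprotein genes TIR1 and TIR2 had means of 0.18 and 0.080, TIR3 had -0.33 and OLE1, the fatty acid desaturase gene, had -0.32, and none was called. TIR3 and OLE1 passed in the other pairing of arrays (adjusted p = 0.0447 and 0.0311) and without array 3 (-0.47 and -0.36, adjusted p = 0.00616 and 0.0263). HEM13, the coproporphyrinogen oxidase gene of heme synthesis, had -0.75, -0.47, -0.75 and -0.34. It lay below 0 on all arrays with a mean of -0.58 ± 0.088 that was not called (adjusted p = 0.0597). HEM13 passed with arrays 1 and 4 as a culture and with arrays fitted separately beside a dye term (adjusted p = 0.00852 and 0.012). In the latter fit its mean ran from -0.61 to -0.55 when an array was left out. With arrays 2 and 4 turned it was at -0.17. HEM13, ANB1, TIR1, TIR2, TIR3 and OLE1 were named after their values were seen.

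**Figure D4:**
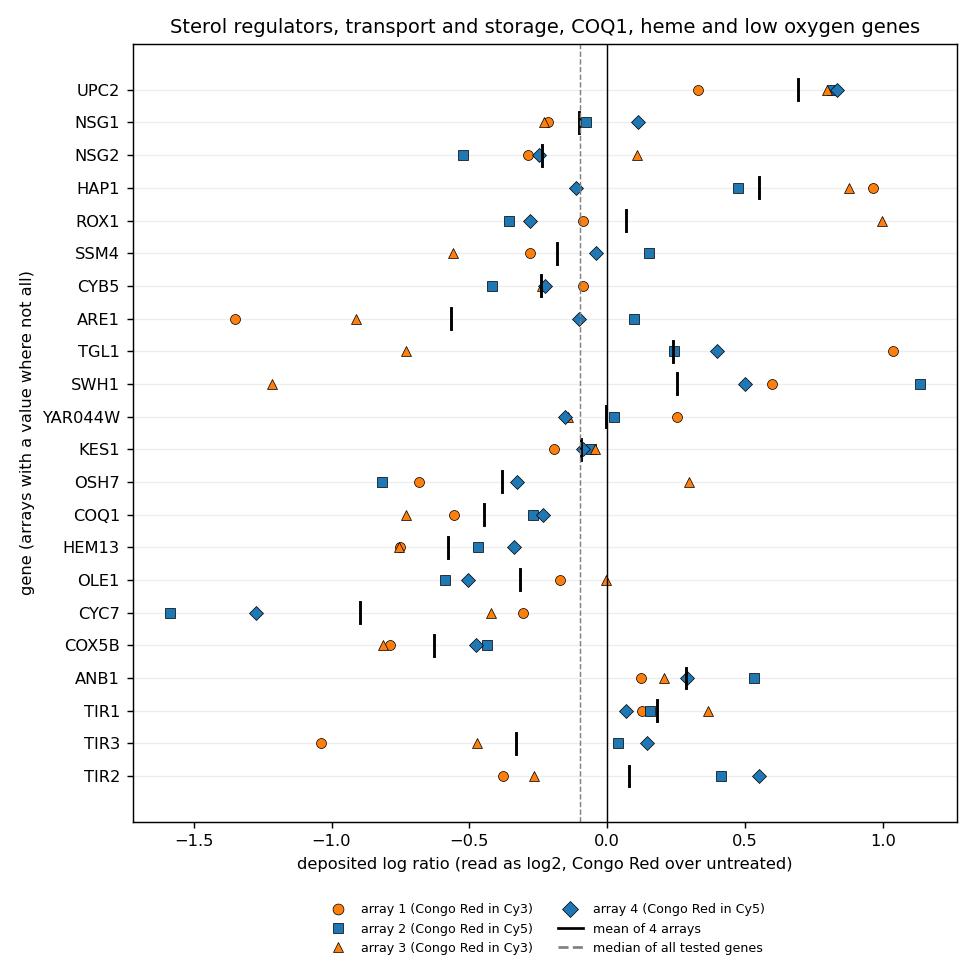
Deposited log ratio (horizontal axis, log2) on each array of the tested sterol regulators, storage and transport genes, COQ1, and heme and low oxygen genes, with a bar at each mean and a dashed line at the median of all tested genes. UPC2 is above 0 on all arrays at 0.33 to 0.83, HEM13, OLE1, CYC7 and COX5B are below 0 on all arrays, and ANB1 and TIR1 are above 0 on all.

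The tested reading frames outside the lists nearest to ERG10 over the 4 arrays, by Euclidean distance, were ARI1 (YGL157W) at 0.20, PDE1 (YGL248W) at 0.28 and GSR1 (YMR295C) at 0.30. ARI1, coding for an aldehyde reductase, measured 0.60, 0.46, 0.61 and 0.57. Likeness over 4 arrays from 2 cultures is a description of these arrays.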

How the data were processed

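Total RNA was reverse transcribed into Cy5- or Cy3-labelled cDNA and hybridised to 2-channel arrays, per the labels. The deposited table gives each reading frame a log ratio for every array, taken as log2. The sources used here state neither its log base, numerator and normalization, centring and background correction included, nor the scanner and the rule for empty cells, and signal over background cannot be seen. Values were used as deposited. After 2 control rows were left out, 6207 reading frames remained. Symbols come from the RefSeq gene table of assembly R64 by systematic name. A symbol other than the systematic name was found for 5129.

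The culture is the replicate. The 2 arrays of opposite dye were averaged under both pairings that the design allows (1 with 2 and 3 with 4, or 1 with 4 and 2 with 3). Limma 3.58.1 in R 4.3.3 (lmFit, eBayes) was run under both, the larger p, SE and interval were kept, and Benjamini-Hochberg adjustment ran over 3080 genes. Dye effects came from limma on 4 arrays with a dye term. Every fit to separate arrays counts the 2 arrays of a culture as independent, so its p-values can be too small. The fits were tested on 10 simulated data sets. Calls for Congo Red recovered 42.8% of effects of 0.5, 95.2% of effects of 1 and 99.2% of effects of 2 (log2). The mean number of false calls was 4.5. Noise was drawn for each array on its own, with none shared within a culture, so the simulation cannot check the culture as replicate. The number of arrays limits the precision.

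The members, the lists, the named genes and the tests were chosen with earlier results of these data known. The rule names the 10 members, the called genes of each other list or else its 2 largest means, and the 3 genes nearest to the leading member.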

Additional observations from a re-analysis of the deposited data

Results flagged for a closer look

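ERG1 on array 1, at 0.28, stood far from the other 3 arrays, which lay between 0.0083 and 0.049. UPC2 on array 1, at 0.33, stood far below the other 3, which lay between 0.79 and 0.83. Both were picked out by the gap of 1 array to the rest, relative to the range of the 4. They are 2 of 32 genes examined, and chance alone picks about 1 in 20.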

How the results depend on the processing

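Of the 6 tested members, ERG13, ERG1, ERG11, ERG3 and ERG6 were called under 0 of 13 alternatives, with adjusted p-values from 0.0832 (ERG6, arrays 2 and 4 turned) to 0.967 (ERG3, without array 1). ERG10 was called under 4 and stayed above 0 under all 13. The count of called members went from 0 to 1 with arrays 1 and 4 as a culture and with single arrays and a dye term, and ran from 0 to 1 when an array was left out. The count over all genes, 80, was 787 with arrays 1 and 4 as a culture, 320 with single arrays and a dye term, 36 without that term, 4 and 32 after centring on the medians of tested genes or of all values (chosen after seeing the data), 12 after scaling, 19 of 3677 genes where 3 values sufficed, and 0 with arrays 2 and 4 turned. It ran from 13 to 823 when an array was left out. The count of 2 other sterol list genes was 10 and 7 in the first 2 of these fits and 0 in the rest, and ran from 0 to 13 when an array was left out. The count of 26 cell wall integrity targets with a single sign becomes 0 by construction when arrays 2 and 4 are turned, and is no further evidence of direction. That turn changed the sign of ERG13 (-0.16), UPC2 (-0.13), OSH7 (0.19), CYC7 (0.53), ERG9 (0.39), ERG2 (-0.36), OLE1 (0.23), ANB1 (-0.12), TIR2 (-0.40) and the sterol storage and transport list genes SWH1 (-0.56) and TGL1 (-0.083). Centring on tested genes turned ERG3 (0.015), ERG9 (0.079), ERG8 (0.035) and MVD1 (0.054), centring on all values turned ERG3 (0.044), NCP1 (0.026), ERG9 (0.11), ERG8 (0.065) and MVD1 (0.084), and scaling turned ERG6 (-0.021). With an array left out, ERG3 ran from -0.16 to 0.012, NCP1 from -0.20 to 0.019, ERG9 from -0.054 to 0.032, ERG2 from -0.026 to 0.074, ERG4 from -0.034 to 0.18, MVD1 from -0.13 to 0.062, SWH1 from -0.20 to 0.71 and TGL1 from -0.21 to 0.68. SWH1 and TGL1 were called without array 3 and not in the fits without another array. The fits with an array left out used single arrays with a dye term, so they differ from the culture means in more than that array. In such a fit a gene's own variance comes only from the 2 arrays that still share an orientation. A call there depends on which pair was left, and is no measure of how stable the gene is. The cause of these changes was not tested. No paired analysis was possible because each array is already a ratio within a culture and the labels give a single group.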

Other observations

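Several sterol genes had values on part of the arrays and were not tested. PDR11, coding for a transporter for sterol uptake, had -0.37 on array 4, and AUS1, coding for its partner in uptake, had no value. ARE2, coding for the main sterol acyltransferase, had -0.068 on array 4. The steryl ester hydrolase gene YEH2 had 0.28 and -0.39 on arrays 3 and 4, whereas YEH1 had none. SUT1 and SUT2, regulators of sterol uptake, had 0.12 and -0.10, and -0.59 and 0.17, on arrays 3 and 4. HRD1, coding for the ubiquitin ligase that degrades Hmg2, was below 0 on arrays 2 to 4, at -0.23, -0.13 and -0.18, and its partner HRD3 had no value.

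Among tested genes, SWH1, coding for an oxysterol-binding protein, had 0.60, 1.13, -1.22 and 0.50. TGL1, coding for a steryl ester hydrolase, had 1.04, 0.24, -0.73 and 0.40. In both, array 3 alone was below 0. They were picked after their values were seen.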
